A study of Arabidopsis thaliana with 12 samples.

Results

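The data described here are the wild-type chromatin immunoprecipitation libraries of the series, in which the same kind of *Arabidopsis thaliana* tissue was profiled for H3K27me3 and for H2A.Z. They comprise 4 of the 12 samples, chosen by their labels as wild type and as an immunoprecipitation of either mark, with 2 replicates for each mark. All plants were of the Col-0 ecotype, untreated and 21 days old, and each replicate was whole rosette tissue pooled for that replicate. The series also holds input chromatin and plants carrying *ref4-3*, a mutation of a Mediator subunit, which were not analysed here. Beside the counts, the deposited files give 7406 H3K27me3 islands and 22638 H2A.Z islands for the merged wild-type replicates, an island being a stretch of 200 bp bins in which the caller epic2 found enrichment.

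H3K27me3, trimethylation of lysine 27 on histone H3, is placed by Polycomb repressive complex 2 and is known for holding developmental genes silent outside the organs and stages that use them. H2A.Z is a variant of histone H2A that the SWR1 complex puts into nucleosomes. It is known in plants both from the nucleosomes just inside the start of active genes and from the bodies of genes that respond to the environment or to development. The comparison asks where the marks lie relative to genes and to each other. An island says that fragments were enriched across many cells, so islands that overlap need not mark the same nucleosome or the same cell, and in bulk tissue fewer cells with a mark and less of the mark per cell cannot be told apart.

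The tables held 7706433 and 8466471 H3K27me3 fragments in 8663 gene regions, and 9070114 and 10128759 H2A.Z fragments in 24960 gene regions. Replicates of a mark were nearly alike, with a median coefficient of variation of the fragment density of 2.41% for H3K27me3 and 3.48% for H2A.Z. A chi-square statistic of 1.13 and 1.08 per degree of freedom placed their differences little above counting noise, so p-values measure a spread that may be partly technical. No label gives a batch. With 2 libraries per mark an exact permutation test cannot give a p below 0.33, so shares and positions are described without a test and with both replicates.

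The sequences of the genes that lead each class of marks show how the marks sit at a gene start. They are 250 bases upstream of the annotated gene start, and in some cases the first 150 coding bases, from RefSeq TAIR10.1, with capitals for the bases inside H2A.Z islands. Among coding genes with regions of at least 600 bp, *NF-YC7* had the highest H3K27me3 density, and *NF-YC6*, close by on the same chromosome, had the highest H2A.Z density. Both encode C subunits of nuclear factor Y, a trimeric DNA-binding factor. All of these *NF-YC7* and *NF-YC6* windows lay inside H3K27me3 islands. The windows are chr5:20555759-20556008 upstream of *NF-YC7*, chr5:20555609-20555758 in its coding sequence and chr5:20558488-20558737 upstream of *NF-YC6*, all on the minus strand.
NF-YC7 upstream: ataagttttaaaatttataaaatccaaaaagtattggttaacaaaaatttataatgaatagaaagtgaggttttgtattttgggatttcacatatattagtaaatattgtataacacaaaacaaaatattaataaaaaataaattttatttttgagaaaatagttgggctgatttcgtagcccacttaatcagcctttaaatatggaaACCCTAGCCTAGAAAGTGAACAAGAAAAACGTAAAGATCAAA
NF-YC7 coding: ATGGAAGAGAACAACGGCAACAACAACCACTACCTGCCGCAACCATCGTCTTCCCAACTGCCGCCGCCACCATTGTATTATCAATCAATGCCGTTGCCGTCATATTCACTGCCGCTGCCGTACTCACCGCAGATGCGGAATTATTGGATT
NF-YC6 upstream: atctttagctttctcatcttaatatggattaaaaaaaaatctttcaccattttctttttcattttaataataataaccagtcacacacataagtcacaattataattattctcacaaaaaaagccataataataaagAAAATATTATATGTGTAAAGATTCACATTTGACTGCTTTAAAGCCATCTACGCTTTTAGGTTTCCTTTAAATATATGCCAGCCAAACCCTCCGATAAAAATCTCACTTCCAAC

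H2A.Z islands took in 42 of the 250 upstream bases of *NF-YC7* and 113 of those of *NF-YC6*, in each case the bases next to the gene, while they covered the coding window entirely. The upstream windows held 24.0% and 27.6% G and C, against 51.3% in the coding window of *NF-YC7*. The next window, chr3:18280409-18280658 on the minus strand, lies upstream of *AT3G49305*, an uncharacterized gene with the highest H3K27me3 density among genes that had H3K27me3 and no H2A.Z. All 250 bases lay inside an H3K27me3 island and none inside an H2A.Z island.
AT3G49305 upstream: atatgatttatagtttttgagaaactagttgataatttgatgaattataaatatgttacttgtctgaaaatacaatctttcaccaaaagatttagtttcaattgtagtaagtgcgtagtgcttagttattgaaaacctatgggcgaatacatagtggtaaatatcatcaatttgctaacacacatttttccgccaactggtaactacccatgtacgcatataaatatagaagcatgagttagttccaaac

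*GDU3*, a glutamine dumper gene thought to act in amino acid export, had the highest H2A.Z density among genes without H3K27me3. Its upstream window, chr5:23367064-23367313, lay in no island of either mark, whereas 148 of its first 150 coding bases, chr5:23366653-23366802, lay inside an H2A.Z island, both on the minus strand.
GDU3 upstream: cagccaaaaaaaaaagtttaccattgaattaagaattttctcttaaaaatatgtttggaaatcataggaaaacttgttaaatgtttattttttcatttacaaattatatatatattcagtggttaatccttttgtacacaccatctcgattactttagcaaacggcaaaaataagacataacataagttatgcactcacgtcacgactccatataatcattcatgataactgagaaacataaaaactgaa
GDU3 coding: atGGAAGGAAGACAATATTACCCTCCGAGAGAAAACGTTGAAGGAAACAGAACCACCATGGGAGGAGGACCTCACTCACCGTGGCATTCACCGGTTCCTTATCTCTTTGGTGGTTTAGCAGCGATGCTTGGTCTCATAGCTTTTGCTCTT

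H3K27me3 formed fewer and longer islands than H2A.Z. The 7406 merged H3K27me3 islands covered 19.03 Mb, or 15.97% of the nuclear genome, with a median length of 1800 bp and 10% of islands at or above 5600 bp. The 22638 merged H2A.Z islands covered 29.51 Mb, or 24.77% of the genome, with a median of 800 bp and 10% at or above 2600 bp. Called on single replicates, H3K27me3 gave 7230 and 7163 islands with medians of 1800 bp, and H2A.Z gave 20417 and 21516 islands with medians of 1000 and 800 bp. The ranges of the marks did not overlap in number, length or genome share.

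**Figure D1:**
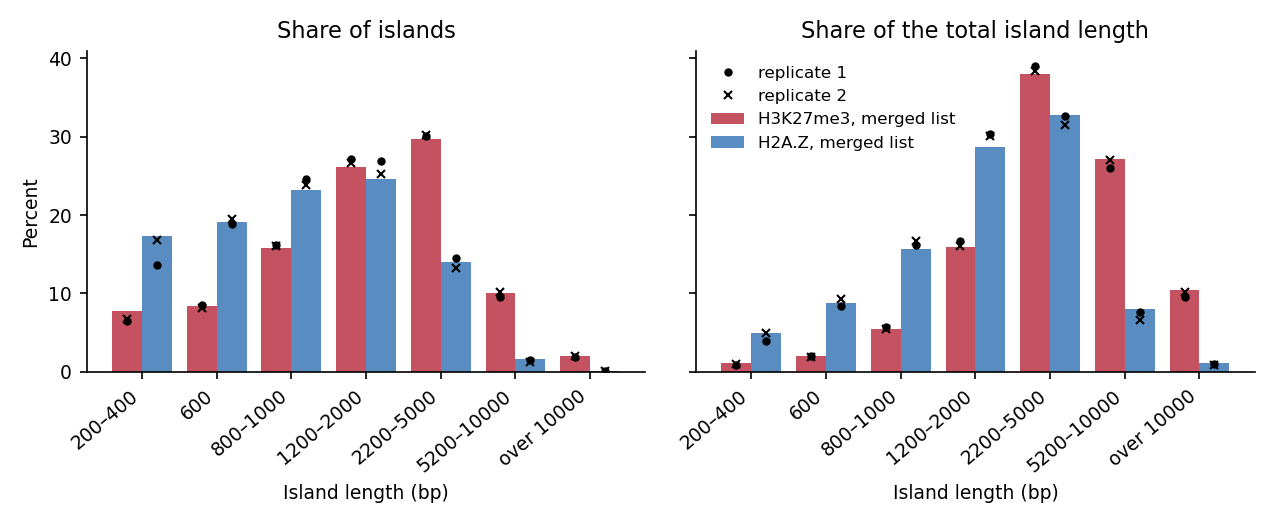
Islands by length in bp: the left panel gives the percent of islands and the right panel the percent of the total island length, with bars for the merged lists of H3K27me3 (red) and H2A.Z (blue) and symbols for the single replicates. Islands up to 600 bp were 16.16% of H3K27me3 islands and 36.36% of H2A.Z islands, and islands over 5 kb held 37.57% of the H3K27me3 length and 9.18% of the H2A.Z length.

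Long islands were mostly an H3K27me3 feature. Of the H3K27me3 islands, 900 exceeded 5 kb and 155 exceeded 10 kb, against 391 and 26 H2A.Z islands. The longest H3K27me3 island spanned 28600 bp on chromosome 5 (18282401 to 18311000) over *AT5G45200*, *AT5G45210*, *AT5G45220* and *AT5G45230*, and 58.74% of it lay inside H2A.Z islands. The island of rank 4, 22200 bp on chromosome 1 (25841801 to 25864000), held only *TCP12*, a repressor of shoot branching, and *AT1G68810*, and was 33.33% inside H2A.Z islands. In the next, 21800 bp on chromosome 1 with 10 coding genes, that share was 86.24%. The islands of rank 2 and 3, 25000 bp on chromosome 3 with 6 coding genes from *AT3G21940* to *AT3G21980* and 24800 bp on chromosome 4 with 8 coding genes from *AT4G15650* to *AT4G15715*, had 73.60% and 62.10%. All coding genes in these 5 islands carried both marks, close to the 95.33% of all H3K27me3-marked coding genes that carried H2A.Z. At least 97.20% of each was also called in either single replicate.

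The longest H2A.Z islands were more varied in their H3K27me3. The longest, 21600 bp on chromosome 5 (24786401 to 24808000), covered *AT5G61680* to *ABCA9* with 3 neighbouring ABC transporter genes, *ABCA11*, *ABCA12* and *ABCA9*, and lay 90.74% inside H3K27me3 islands. The island of rank 4, 16600 bp on chromosome 1 (27192801 to 27209400), covered *AT1G72250*, *AT1G72270* and *THI2.1*, which encodes a thionin, an antimicrobial peptide, and held no H3K27me3 at all. Between them, the islands with *RTM3*, a gene that restricts the movement of a plant virus, and with *AT1G65120* to *AT1G65180* lay 73.68% and 17.39% inside H3K27me3 islands, and the island of rank 5, with *AT4G28775* to *AT4G28820*, 38.46%.

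Relative to genes, H2A.Z was a mark of gene bodies and H3K27me3 reached well beyond them. Inside protein-coding genes lay 50.57% of the H3K27me3 length (51.00% and 50.56% in the replicates), 77.71% of the H2A.Z length and 54.12% of the nuclear genome. Coding sequence alone made up 28.89% of the H3K27me3 length and 47.56% of the H2A.Z length, against 27.45% of the genome. Intergenic DNA outside the 1 kb upstream of coding genes, which includes DNA behind gene ends, made up 27.36% of the H3K27me3 length and 8.95% of the H2A.Z length, against 22.62% of the genome. Of the H3K27me3 islands 48.60% took in the start of a coding gene, and of the H2A.Z islands 32.19%. An island with 2 or more coding genes was less common than an island with 1, at 16.14% of H3K27me3 islands and 10.37% of H2A.Z islands.

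The marks shared 11.32 Mb. This was 59.48% of the H3K27me3 island length (57.00% and 55.82% in the replicates) and 38.35% of the H2A.Z island length (38.30% and 38.09%), although H2A.Z islands covered only 24.77% and H3K27me3 islands 15.97% of the genome. Pairing the H3K27me3 islands of one replicate with the H2A.Z islands of the other gave 56.35% and 56.47%, between the values of the same-numbered pairs. The share depended on weak islands: with only the islands above the median score of their own list it was 40.20%, against 14.38% of the genome in H2A.Z islands so chosen.

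Inside H3K27me3 domains, H2A.Z followed the gene. It covered 91.50% of the coding sequence inside H3K27me3 islands (89.87% and 89.70% in the replicates), but 38.11% of the DNA up to 1 kb upstream of a coding gene and 31.20% of the other intergenic DNA inside them. Introns and UTRs inside H3K27me3 islands were intermediate, with 67.82% and 66.90%. Each of these shares was higher than that of all such DNA in the genome, of which H2A.Z covered 42.92% of the coding sequence, 16.85% of the upstream DNA and 9.80% of the other intergenic DNA. Of the 7.71 Mb with H3K27me3 and no H2A.Z, 73.82% lay outside any gene and 6.06% in coding sequence. The stretches with H3K27me3 alone held 29.6% G and C, against 38.2% in stretches with both marks, 39.7% in stretches with H2A.Z alone and 35.5% elsewhere. Outside genes the first of these was 28.7% and the second 33.4%, so the gap was smaller there, and the part of base composition in the island calls was not tested.

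**Figure D2:**
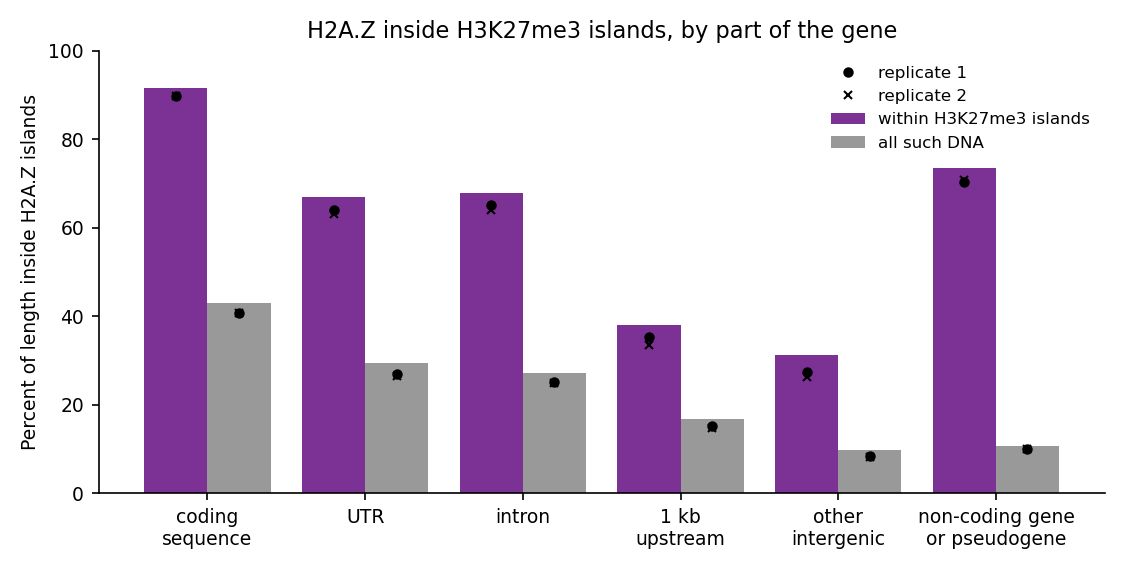
Percent of the length inside H2A.Z islands, for DNA within H3K27me3 islands (purple) and for all DNA of the same kind (grey), by the part of the gene, in the merged lists (bars) and single replicates (symbols). The share within H3K27me3 islands falls to 31.20% in intergenic DNA, against 91.50% in coding sequence.

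Counted as islands, 6454 H3K27me3 islands (87.15%; 84.56% and 86.03% in the replicates) met an H2A.Z island over at least 200 bp, and 9057 H2A.Z islands (40.01%; 40.65% and 40.10%) met an H3K27me3 island. Longer H3K27me3 islands met H2A.Z more often, from 73.27% of those up to 600 bp to all 155 over 10 kb, yet a smaller part of their length was inside H2A.Z islands, 69.91% up to 600 bp and 53.84% over 10 kb. The 952 H3K27me3 islands free of H2A.Z had a median length of 1000 bp and lay a median of 1000 bp from the nearest H2A.Z island. The 13581 H2A.Z islands free of H3K27me3 had a median length of 800 bp and lay a median of 5000 bp from H3K27me3. Wholly inside an island of the other mark were 2265 H3K27me3 islands and 6063 H2A.Z islands.

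Nearly every gene with H3K27me3 also had H2A.Z. With a gene called marked when at least 200 bp of it lay in an island, 7455 of 36973 nuclear genes had both marks, 657 had H3K27me3 alone, 13845 had H2A.Z alone and 15016 had neither. Thus 91.90% of the H3K27me3-marked genes carried H2A.Z (89.8% and 90.4% in the replicates) and 35.00% of the H2A.Z-marked genes carried H3K27me3 (35.9% and 35.4%). The first share was 95.33% among the 27444 protein-coding genes, which divided into 6636, 325, 12633 and 7850. It was 70.6% among genes of all types if only islands above the median score were used. For comparison, H2A.Z marked 57.61% of all nuclear genes, 70.21% of coding genes and 32.87% of all nuclear genes with only those islands. H3K27me3 marked 21.94% of all nuclear genes. The class called H3K27me3 alone was the least stable, with 530 of 657 genes in that class in both replicates, against 6820 of 7455 genes with both marks. In 7397 of the 7455 genes with both, the marks shared at least 200 bp within the gene, and in 52 they shared nothing.

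Other gene types were counted by the same rule, under which a gene shorter than 200 bp cannot be called. Of 3480 long noncoding RNA genes, 554 had both marks, 231 H3K27me3 alone and 866 H2A.Z alone. Thus 70.57% of those with H3K27me3 carried H2A.Z, against 40.80% of all 3480. Of 3917 pseudogenes, 3599 had neither. The median lengths were 343 bp for long noncoding RNA genes, 2043 bp for pseudogenes and 2078 bp for coding genes.

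In genes with both marks each mark covered most of the gene. In coding genes with both marks, islands covered a median of 93.2% of the gene for H3K27me3 and 86.1% for H2A.Z, whereas H3K27me3 covered a median of 79.7% of genes with H3K27me3 alone and H2A.Z 42.9% of genes with H2A.Z alone. Coverage depended on gene length: above 3 kb H3K27me3 covered 27.8% of the 29 genes that had it alone. The classes differ in length, with medians of 1685 bp for both marks, 1079 bp for H3K27me3 alone and 2300 bp for H2A.Z alone. Within length classes the H2A.Z coverage remained apart: 95.4% in genes with both against 83.5% in genes with H2A.Z alone up to 1 kb, 89.0% against 63.7% between 1 and 2 kb, and 71.3% against 19.2% above 3 kb. Where a mark had to cover 50% of the gene to count, which removes genes marked over a smaller part, the order above 3 kb turned, with 80.2% against 85.3%. Among coding genes over 2 kb, H2A.Z islands reached the first 500 bp of 83.95% of genes with both marks and of 84.72% of genes with H2A.Z alone. In the replicates the order turned, with 81.7% and 81.4% against 75.4% and 76.6%, so this order was not stable. They reached the middle 500 bp of 69.91% and 26.92%, and the last 500 bp of 66.19% and 23.56%, with middle shares of 67.9% and 66.9% against 25.0% and 24.9% in the replicates. The gap between the classes was thus much wider in the middle and at the end of the gene than at its start.

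**Figure D3:**
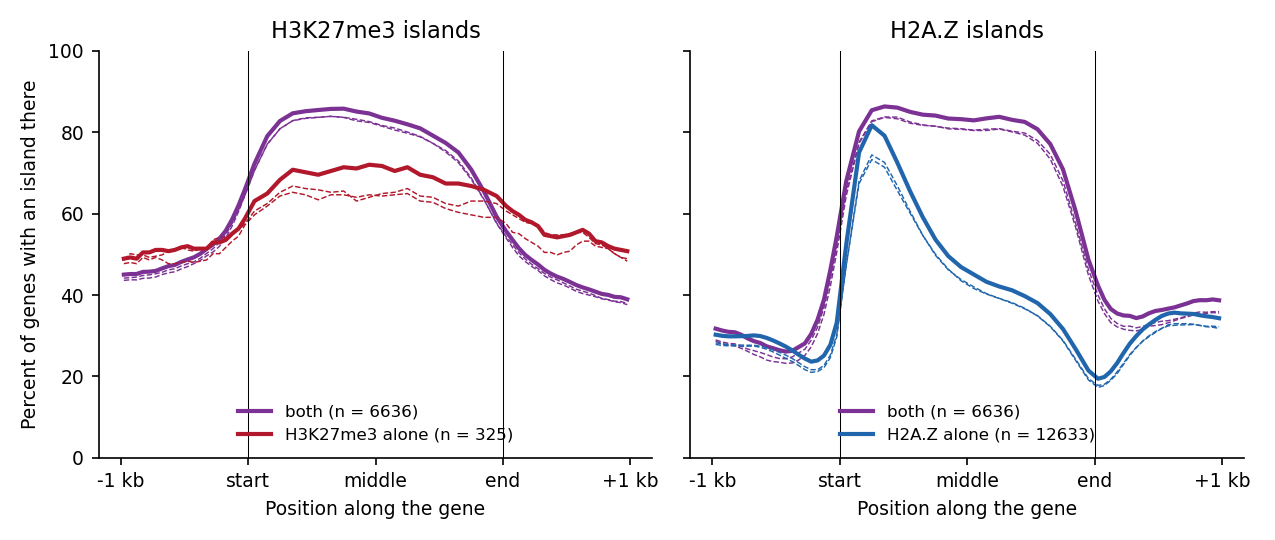
Percent of coding genes with an H3K27me3 island (left panel) or an H2A.Z island (right panel) at each position from 1 kb before the gene start to 1 kb after its end, gene bodies scaled to one length, for genes with both marks (purple), H3K27me3 alone (red) and H2A.Z alone (blue); thick lines are the merged lists and dashed lines the replicates. At mid-gene H2A.Z was present in 82.9% of genes with both marks and in 45.0% of genes with H2A.Z alone, and 225 bp before the start in 30.4% and 23.6%.

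Both marks dropped at the gene start, H2A.Z more steeply. Among genes with both marks, H3K27me3 lay over 53.8% of genes 225 bp before the start, 65.9% at 25 bp before it and 83.5% at mid-gene, while H2A.Z lay over 30.4%, 54.4% and 82.9%. Behind the gene end H3K27me3 stayed at 48.6% of genes at 225 bp, against 35.0% for H2A.Z. The replicates were close at these positions, with H2A.Z over 51.9% and 50.5% of genes at 25 bp before the start.

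Within each mark, the median density was higher in genes with both marks than in genes with that mark alone. Density is given in CPM per kb, the counts per kb after scaling the gene-region fragments of each library to a common total, over regions of at least 600 bp in coding genes. Each mark is scaled to its own libraries and regions, so densities can be compared within a mark and not between the marks. The median H3K27me3 density was 78.8 in 5911 regions of genes with both marks (78.4 and 78.8 in the replicates) and 47.9 in 175 regions of genes with H3K27me3 alone (49.5 and 48.8). The median H2A.Z density was 40.4 in 6466 regions of genes with both marks (40.5 and 40.5) and 34.6 in 10715 regions of genes with H2A.Z alone (34.7 and 34.6). Each gap was far larger than the difference between replicates, but the ranges between the quartiles overlapped. They were 49.4 to 124.3 against 35.2 to 75.5 for H3K27me3, and 33.8 to 48.8 against 29.9 to 40.8 for H2A.Z. With each gene given by its region with most fragments, the H2A.Z order was not general. It turned in some families, such as MADS-box genes (34.6 against 38.7), and held in others, such as AP2/ERF-type genes (50.2 against 43.7). In regions of 1000 bp up to 2000 bp the medians were 81.1 against 46.3 for H3K27me3 and 40.3 against 34.9 for H2A.Z, so that the order held at matched length. A weak region is less likely to be called as an island at all, and the part of the calling threshold in these gaps was not tested.

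The 10 coding genes with the highest H3K27me3 density were *NF-YC7*, *DRNL*, *AT4G29640*, *NF-YC6*, *AT3G12420*, *AGL96*, *AT4G29650*, *AT5G06380*, *AHL19* and *ABI4*, and all 10 carried H2A.Z too. *NF-YC7* (chromosome 5, 20555120 to 20555758) had 2436 and 2652 H3K27me3 fragments in 639 bp, a density of 494.3 and 490.6. *DRNL*, an AP2-type factor that acts in the initiation of cotyledons and floral organs, had 396.7 and 381.4, and *ABI4*, an AP2-type factor of abscisic acid and sugar signalling, had 339.8 and 348.6. *AGL96*, a MADS-box gene, had 356.0 and 348.2. *AT4G29640* and *AT4G29650*, a pair of cytidine deaminase family genes on the same stretch of chromosome 4, had 373.6 and 365.0 and 347.1 and 356.1. Members of such neighbouring families can share reads, and how reads with several matches were treated is not given in the sources used here.

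The 10 coding genes with the highest H2A.Z density were *NF-YC6*, *AT3G12440*, *NF-YC7*, *AT4G00889*, *DAZ3*, *AT1G80990*, *KNU*, *AT3G63020*, *AGP4* and *AT1G02550*, and all 10 carried H3K27me3 too. *NF-YC6* had 104.4 and 109.7 and *NF-YC7* 100.3 and 103.0 H2A.Z CPM per kb, the only genes in both lists. *KNU*, a zinc finger gene that ends stem cell activity in the floral meristem, had 93.5 and 94.9, and *DAZ3*, a zinc finger gene of the male germline, 96.0 and 101.5. *AT3G63020* combined 91.1 and 92.7 for H2A.Z with 38.9 and 36.1 for H3K27me3. That H3K27me3 density was above that of only 12.4% of the H3K27me3 regions of at least 600 bp in coding genes. The top 100 lists of the marks shared 8 genes. Of the top 100 genes for H2A.Z 81 carried both marks, against 38.4% of the 14942 genes ranked, and of the top 100 for H3K27me3 all 100 did, against 97.3% of 5775.

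Genes with a single mark had lower maxima. The highest H3K27me3 densities without H2A.Z were those of *AT3G49305* (160.1 and 150.3), the beta-glucosidase gene *BGLU32* (150.9 and 150.2) and the transcription factor gene *WRKY48* (147.7 and 142.5). The highest H2A.Z densities without H3K27me3 were those of *GDU3* (87.4 and 85.8), the fatty acid elongase-type gene *HOS3-1* (84.5 and 85.6) and *AT1G55770*, of the invertase and pectin methylesterase inhibitor family (79.3 and 89.3).

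Genes that build flowers, meristems and seeds carried both marks in the merged lists. All 10 floral organ MADS genes, all 11 meristem and boundary genes and all 12 genes of the seed programme had both marks, against 24.2% of all coding genes. In the floral list H3K27me3 covered 79.0% to 100% of each gene while H2A.Z covered 16.5% to 100%. *AG*, which specifies stamens and carpels, had 166.9 and 170.7 H3K27me3 CPM per kb over its whole length and H2A.Z islands near both ends that covered 16.5% of it, with 24.4 and 24.6 in its largest region. *SEP3*, a partner of the floral homeotic factors, was covered fully by both marks in the merged list, with 206.8 and 203.8 for H3K27me3 and 25.8 and 25.6 for H2A.Z. These H2A.Z densities were low: *AG* was above only 2.3% and *SEP3* above only 4.2% of the H2A.Z regions in coding genes. By this rank the floral genes ran from 0.4% (*SHP1*) to 51.3% (*SHP2*). *PI*, which specifies petals and stamens, had H2A.Z in the islands of 1 replicate only, 0% of the gene in replicate 1 and 30.6% in replicate 2. *OLEO2*, an oleosin gene of the seed list, had H3K27me3 over 12.7% of the gene in replicate 1, too little to be called, and 26.5% in replicate 2. The other 31 genes of these lists had both marks in both replicates.

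*WUS*, which maintains the stem cells of the shoot, had H3K27me3 densities of 228.9 and 229.9 and H2A.Z densities of 67.8 and 74.1. *STM*, a homeobox gene of the shoot meristem, had 212.6 and 209.6 for H3K27me3 and 36.8 and 35.6 for H2A.Z. The boundary genes *CUC1* and *CUC3* were the members of their list with H3K27me3 over less than 50% of the gene, with H3K27me3 over 32.8% and 46.7% of the gene and H2A.Z over 99.6% and 91.3%, whereas *CUC2* had H3K27me3 over 100% and H2A.Z over 67.6%. The seed list, which holds storage proteins and regulators, had the highest median H3K27me3 density of the lists, 225.7, against 145.8 in the floral list and 77.1 in all coding genes with both marks, each gene given by its region with most fragments. Its H2A.Z median was 57.7, against 26.8 and 42.0. *SESA3*, a 2S albumin gene, had 325.5 and 311.7 for H3K27me3 and 60.1 and 57.3 for H2A.Z.

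Of 11 flowering time genes, 7 had both marks, against 24.2% of all coding genes. *FLC*, the repressor that vernalization silences, had H3K27me3 over 99.7% of the gene (187.4 and 189.8) and H2A.Z over 17.3% (49.1 and 51.8). *FT*, the mobile flowering signal, and its relative *TSF* had 114.2 and 118.3 and 121.6 and 117.9 for H3K27me3. *FLM*, *MAF2* and *MAF3*, relatives of *FLC*, had neither mark, and *CO*, an activator of *FT*, had H2A.Z alone. Of 13 housekeeping genes none had H3K27me3 and 3 had H2A.Z, against 25.4% and 70.2% of all coding genes, and 10 had neither, among them *ACT2* and *UBQ10*. Of these 13, *GAPC2* lost its H2A.Z call in replicate 2 and *PP2AA3* had one in replicate 2 only.

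Most genes for the marks themselves had H2A.Z alone or neither, as had 74.6% of all coding genes. Of 11 Polycomb and demethylase genes, 5 had H2A.Z alone (*CLF*, *SWN*, *FIE*, *LHP1* and *REF6*), over 7.4% to 15.3% of the gene, and 4 had neither. *LHP1* had no H2A.Z island in either replicate list and *FIE* none in replicate 2. The exceptions were *MEA* and *FIS2*, which act in the endosperm and had both marks, with H3K27me3 densities of 125.5 and 125.4 and of 41.2 and 44.5 in the region with most fragments. Of 8 genes for H2A.Z and its remodellers none had H3K27me3 and 4 had H2A.Z, including the H2A.Z genes *HTA8* and *HTA11*, against 70.2% of all coding genes with H2A.Z. Of 16 stress and hormone genes, 10 had H2A.Z alone, against 46.0% of all coding genes, such as *CBF3*, a cold-response regulator, with 55.7 and 55.4. *WRKY33* and *ZAT12*, which are among the 10, had no H2A.Z island in either replicate list. The jasmonate repressor gene *JAZ1* and the defence regulator *WRKY40* were the list's genes with H3K27me3 alone, at low densities of 26.9 and 25.2 and of 35.4 and 34.0. The island at *JAZ1* covered 31.7% of the gene in replicate 1 and 0% in replicate 2. *PR1*, a marker of the salicylic acid response, had both marks over most of its length, with 207.7 and 210.7 for H3K27me3 and 66.2 and 70.7 for H2A.Z.

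The tissue label was checked by its marks, since these files hold no transcript levels. Of all coding genes 25.4% had H3K27me3, 24.2% had both marks and 46.0% had H2A.Z alone. Genes of other organs carried H3K27me3: the floral and seed lists, 6 of 8 root genes and 2 of 3 pollen genes. The photosynthesis genes, however, were not free of it, since 9 of 14 had both marks and 5 had H2A.Z alone, in both replicates. The samples are therefore called rosettes by their label only.

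The H3K27me3 of the photosynthesis genes had its own position. In the 9 genes it covered 21.7% to 71.2% of the gene, and of 3 equal parts of the gene its median share was 0% in the starting part and 64.1% in the ending part, where all coding genes with both marks had 100% in each. Its median density was 50.9, against 77.1 in all coding genes with both marks. *LHCA1*, an antenna protein gene of photosystem I, had 42.6 and 42.0 H3K27me3 CPM per kb in a region of 600 bp, beside 64.0 and 61.6 H2A.Z CPM per kb over 83.7% of the gene. Ranked within each mark, *LHCA1* was above 19.0% of the H3K27me3 regions and 96.3% of the H2A.Z regions in coding genes. *LHCB3*, an antenna protein gene of photosystem II, had 42.9 and 38.7 beside 87.7 and 73.0. *RBCS1A*, for the small subunit of Rubisco, was higher, with 143.3 and 141.2 in a region of 400 bp. The list was extended to all 68 genes annotated as photosystem or chlorophyll-binding proteins, a group chosen after these values were seen. Of these, 26 had both marks (38.2%, against 24.2% of all coding genes), 40 had H2A.Z alone (58.8%, against 46.0%) and 2 had neither. In 17 of the 26 the starting part of the gene held no H3K27me3 island, against 495 of all 6636 coding genes with both marks, and H3K27me3 covered a median of 0%, 25.6% and 63.3% of the 3 parts from start to end. H2A.Z covered 78.5%, 100% and 100% of them. Of these 26 genes 7 are in the photosynthesis list itself; of the other 19, 12 had a starting part free of H3K27me3 islands, with medians of 0%, 25.4% and 59.6%.

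Other families were also chosen after values were seen. Transcription factor families had H3K27me3 on these shares of their members: 65.0% of 123 MYB, 54.2% of 72 WRKY, 52.5% of 99 AP2/ERF-type, 50.0% of 120 MADS-box, 49.6% of 119 NAC and 48.9% of 135 bHLH genes, against 25.4% of all coding genes. All 6 YABBY genes, which set leaf polarity, had both marks. In their bodies H3K27me3 covered a median of 100% of each part of the gene, while H2A.Z covered 77.6%, 87.9% and 17.3% from start to end, and bHLH genes with both marks had 93.0%, 99.0% and 42.6%. Peroxidase genes had H3K27me3 on 77.6% of 67 members, F-box genes on 54.7% of 653 and cytochrome P450 genes on 50.8% of 248. Defensin-like peptide genes had the most H3K27me3 without H2A.Z of the families listed, 22 of 193, against 325 of all 27444 coding genes.

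In contrast, genes for core cell functions had little H3K27me3. It marked 3.44% of 262 pentatricopeptide repeat genes, which act in organelle RNA processing, 7.56% of 344 ribosomal protein genes and 1 of 45 proteasome subunit genes. H2A.Z marked 83.2%, 43.9% and 44.4% of these, against 70.2% of all coding genes. The pentatricopeptide repeat genes thus lay above that share and the other families below it. In the 209 pentatricopeptide repeat genes with H2A.Z alone it covered a median of 82.8% of the starting part of the gene and 0% of the other parts.

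**Figure D4:**
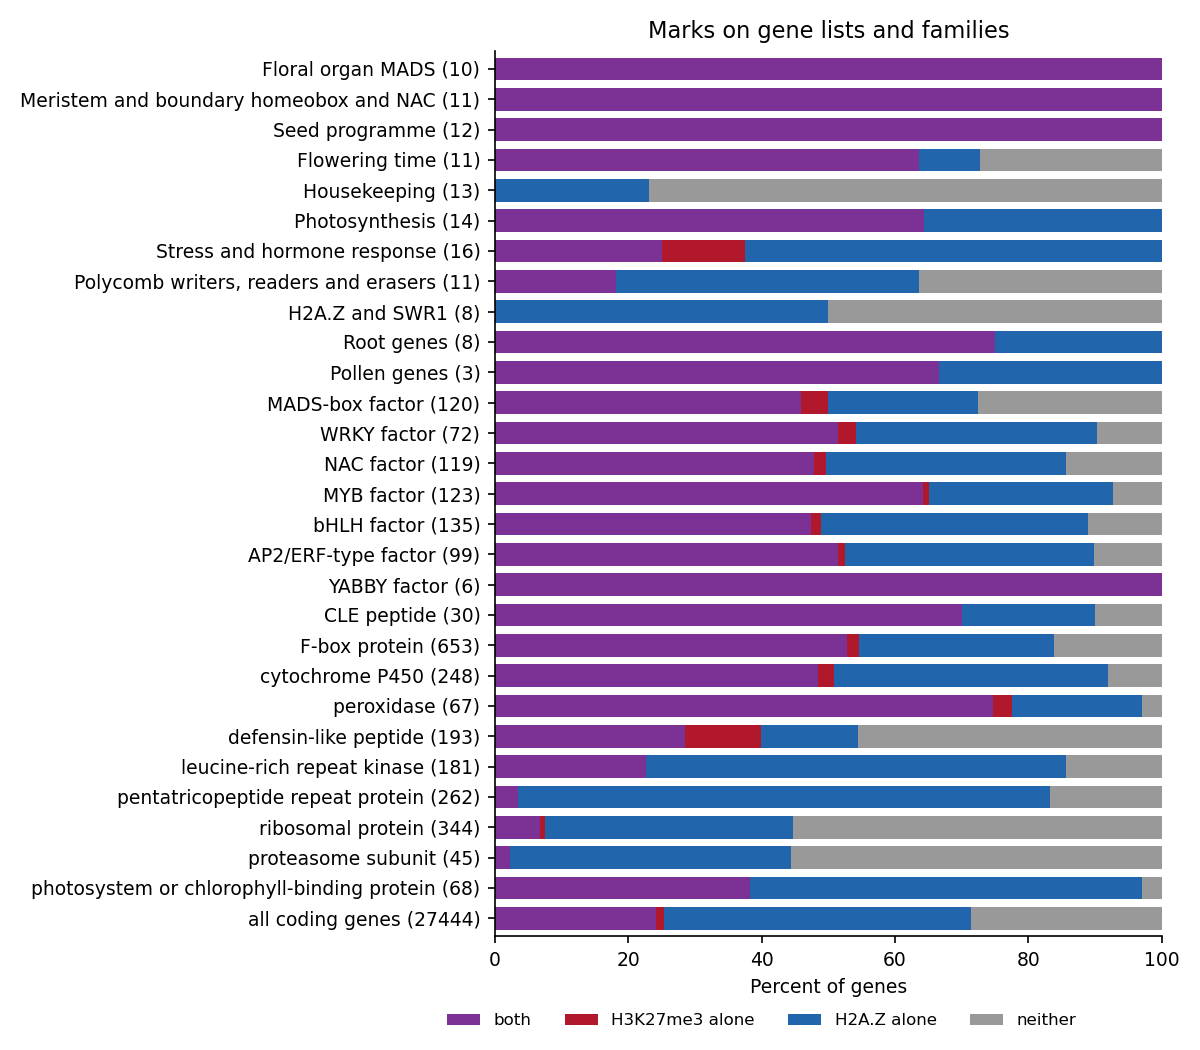
Share of the genes in each list or family, with the number of genes in brackets, that had both marks (purple), H3K27me3 alone (red), H2A.Z alone (blue) or neither (grey) in the merged lists. The floral, meristem, seed and YABBY rows are filled by both marks, and the housekeeping row has no H3K27me3.

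Whether H3K27me3 and H2A.Z kept a fixed balance was tested on 4496 pairs of regions in 4445 genes in which the marks covered nearly the same DNA, each sharing at least 80% of the other. The fold is the H3K27me3 density over the H2A.Z density, centred on the typical pair, so it says which genes had more of either mark than that pair and never which mark was more abundant. In edgeR's quasi-likelihood test with Benjamini-Hochberg adjustment over all pairs, 3996 pairs passed at 0.05, so the added requirement of a change of more than 2-fold set most calls. By both, 425 pairs (9.45%) had relatively more H3K27me3 and 655 (14.6%) relatively more H2A.Z, 24% in all. From the 5th to the 95th percentile the log2 fold ran from -1.46 to 1.20. The common dispersion of these pairs was estimated at 9.77e-05, a biological coefficient of variation of 0.99%. The SEs and p-values below thus hold little more than counting noise of 4 libraries and do not measure a spread between plants. The split depended on the centring: with library totals alone, which moved the median from -0.03 to -0.19, 255 pairs were called higher and 897 lower, so that higher calls made up 22.1% of the calls in place of 39.4%.

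**Figure D5:**
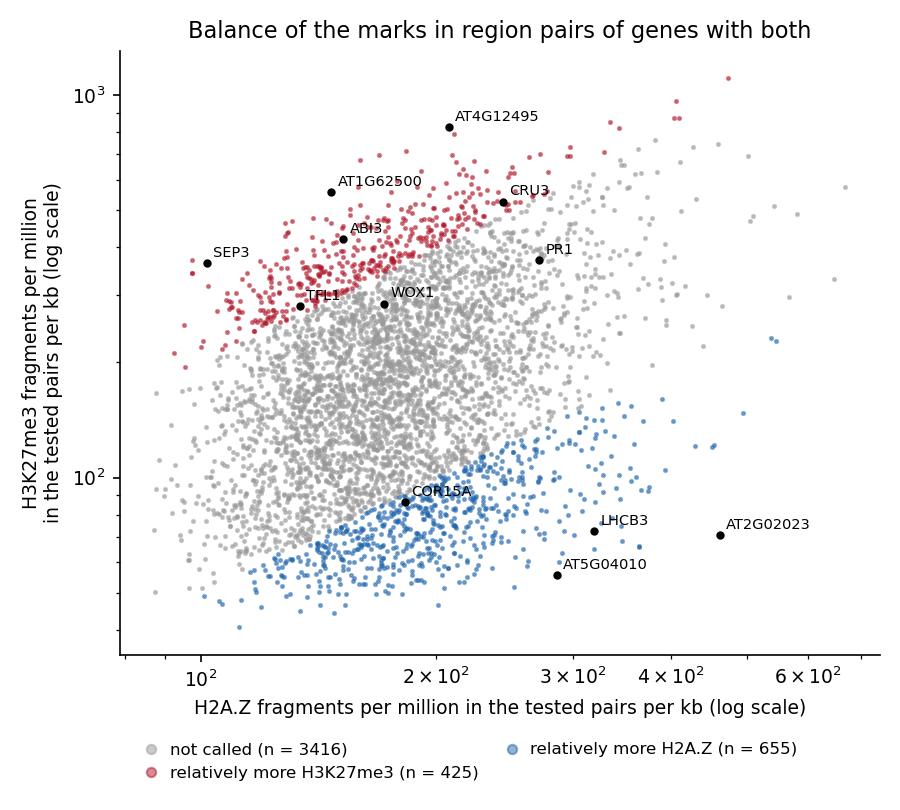
H3K27me3 density against H2A.Z density in the 4496 region pairs, both on log scales in CPM per kb scaled to the fragments in the tested pairs, as means of the 2 replicates; red and blue points are the 425 and 655 called pairs, grey points the other pairs, and black points named genes. *SEP3*, *AT1G62500* and *AT4G12495* lie on the upper edge and *LHCB3*, *AT5G04010* and *AT2G02023* on the lower edge.

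Among coding genes, the pairs with relatively most H3K27me3 were those of *AT4G12495*, *AT1G62500*, *AT4G10740*, *AT3G10585* and *SEP3*. *AT4G12495*, an uncharacterized gene, had 972 and 1151 H3K27me3 fragments and 122 and 163 H2A.Z fragments in 282 bp, a log2 fold of 1.98 (SE 0.08, edgeR adjusted p = 9.83e-47). *AT1G62500*, a lipid-transfer and 2S albumin family gene, had 3858 and 4158 H3K27me3 fragments against 522 and 522 H2A.Z fragments, a log2 fold of 1.92. *SEP3* had 4127 and 4462 against 605 and 670, a log2 fold of 1.84 (SE 0.04, edgeR adjusted p = 1.95e-71). Only called pairs in which the replicate densities of the marks did not overlap could be named, so that separation was set by the choice.

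The coding genes with relatively most H2A.Z were *AT2G02023*, *AT4G38065*, *AT3G63020*, *AT5G04010* and *AT1G79130*. *AT2G02023*, an uncharacterized gene, had 116 and 119 H3K27me3 fragments and 395 and 418 H2A.Z fragments in 364 bp, a log2 fold of -2.70 (SE 0.09, edgeR adjusted p = 8.87e-53). *AT3G63020*, among the top genes for H2A.Z above, had 180 and 183 against 496 and 563, a log2 fold of -2.46. *AT1G79130*, of the auxin-responsive SAUR family, had 151 and 196 against 434 and 464, a log2 fold of -2.29, and *AT4G38065*, of the bHLH family, had -2.47.

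Few list genes had regions that matched closely enough for the test. Of the 12 seed genes 9 were tested. Relatively more H3K27me3 was called in 5 (55.6%), against 9.45% of all pairs, and relatively more H2A.Z in none, against 14.6%. Their median log2 fold was 1.11, against -0.03 over all pairs. The tested *SESA1* to *SESA4* lie close together on chromosome 4 (13607329 to 13614283), so they are not separate cases. The 5 were *ABI3* (1.46), *FUS3* (1.41), *SESA3* (1.28), *SESA2* (1.25) and *CRU3* (1.11). *CRU3* had 5149 and 5621 H3K27me3 fragments against 1215 and 1432 H2A.Z fragments, and with library totals alone it no longer passed the fold threshold. *TFL1*, a repressor of flowering, had relatively more H3K27me3 (1.07), a call lost with library totals alone (0.91), while *WOX1* (0.73), *PLT1* (0.97) and *PLT2* (0.92), which act in leaf and root development, did not pass. *LHCB3*, with 331 and 327 H3K27me3 fragments in 1000 bp and 930 and 863 H2A.Z fragments in 1168 bp, had relatively more H2A.Z (-2.14), as had the cold-response gene *COR15A* (-1.08), whose call was lost among pairs that share 50% or more (-0.99). Coding genes over 3 kb had 10 higher and 71 lower calls among 319 pairs, 3.1% and 22.3%, against 10.1% and 12.3% of the 1790 pairs of genes between 1 and 2 kb.

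Within these pairs the densities of the marks nevertheless rose together weakly. The pairs were chosen for having both marks over nearly the same DNA. Places where the marks exclude each other could not enter, so these values do not show whether the marks are opposed elsewhere. In the 3323 pairs of coding genes with regions of at least 600 bp, the H2A.Z density had medians of 155, 159, 165, 171 and 193 CPM per kb, scaled to the tested pairs, in 5 equal classes from low to high H3K27me3 density. Pearson's r of the log2 densities was 0.30 and Spearman's rho 0.28, with r of 0.29 and 0.30 in the replicates. These are values across genes of the same 4 libraries, which share depth, mappability and base composition, and are given as a description.

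Short motifs were counted in the same classes. The telobox AAACCCTAA, a short motif that several plant Polycomb-recruiting factors are known to bind, was sought on both strands in the 250 bases before the gene start. It occurred before 3.51% of 6636 genes with both marks, 2.46% of 325 genes with H3K27me3 alone (8 genes), 2.37% of genes with H2A.Z alone and 2.62% of all 27444 coding genes. The repeat GAGAGAGA occurred before 5.12% of genes with both marks, 4.00% with H3K27me3 alone and 4.91% of all, and CTCCCTC before 1.81%, 1.85% and 1.56%; matches of different motifs may overlap at their ends. In island stretches the telobox had 109 matches per Mb with both marks, 94.4 with H3K27me3 alone, 112 with H2A.Z alone and 104 elsewhere. These pooled rates hid opposite orders. Inside coding genes the rates were 105, 107 and 119, against 63.7 elsewhere. Outside any gene they were 120, 89.6 and 79.7, against 173 elsewhere. Among genes with a telobox upstream, *AT5G02990* and *AT5G02995*, a pair of kelch repeat genes on the same stretch of chromosome 5, had the highest H3K27me3 densities, 317.6 and 312.9 and 314.5 and 312.4. Their windows, chr5:699919-700168 and chr5:701438-701687 on the plus strand of RefSeq TAIR10.1, are shown with the motif, on either strand, in capitals.
AT5G02990 upstream: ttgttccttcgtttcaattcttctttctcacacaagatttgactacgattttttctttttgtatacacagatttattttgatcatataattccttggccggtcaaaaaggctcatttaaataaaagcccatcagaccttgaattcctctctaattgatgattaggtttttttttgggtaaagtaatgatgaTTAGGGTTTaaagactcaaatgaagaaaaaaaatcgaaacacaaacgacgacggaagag
AT5G02995 upstream: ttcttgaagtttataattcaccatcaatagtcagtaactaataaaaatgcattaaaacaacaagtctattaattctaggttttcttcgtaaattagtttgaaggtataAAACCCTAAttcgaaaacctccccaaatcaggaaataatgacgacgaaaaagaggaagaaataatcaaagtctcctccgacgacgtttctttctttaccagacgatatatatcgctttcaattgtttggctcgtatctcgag

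Both windows lay entirely inside H3K27me3 islands, and 250 and 87 of their bases lay inside H2A.Z islands. The motif began 59 and 142 bases before the gene start. A match is a description of the letters and not a binding site.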

How the data were processed

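Samples were grouped by mark from their titles, wild type only. Per the labels and the study's methods, the authors trimmed paired reads with fastp 0.23.2, mapped them to TAIR10 with Bowtie2 (2.2.1 in the submitters' processing notes, another version in the methods), kept proper pairs with SAMtools 1.17 and called islands with epic2 (the notes name SICER) in 200 bp bins. Each deposited island carries a score, whose scale is not given in the sources used here and which served only to rank islands within a list. The deposited counts are whole numbers of fragments per part of a gene inside an island of either genotype, at least 200 bp long, with duplicates removed and no input subtracted. Fragments that cross the edge of a region count for it, which raises the density of short regions, and overlapping genes share fragments.

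Genes and gene parts came from RefSeq TAIR10.1, whose nuclear chromosomes equal TAIR10, leaving out 926 transcribed pseudogenes. Densities used edgeR's TMM scaling. In the lists and families, a gene with several regions is given by the region with most fragments. In the top-gene and single-mark rankings it is given by its densest region of at least 600 bp. The other mark of a top gene is given by the region with most fragments. The balance of the marks was tested with edgeR 4.0.16 (quasi-likelihood, offsets for library size and region length, R 4.3.3) at an adjusted p of 0.05 and a fold above 2. DESeq2 1.42.0, other scalings, pairings and filters, a replicate block and leaving out each library were alternatives. The test was tried on simulated counts with a larger spread than that of these libraries, so that trial does not show how it performs here. The samples' replicate numbers were not used as pairs.

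The members and gene lists were chosen with earlier results of these data known. Named were, per mark, the 10 coding genes of highest density (regions of 600 bp, a mean count of 100 and marked in both replicates), the 5 longest islands, the 5 coding genes farthest to each side of the balance, and the lists, in which 3 of 120 symbols did not match. The genes farthest to each side were taken from called pairs in which the replicate densities of the marks did not overlap. Families, the single-mark maxima and the sequences were chosen after values were seen. Input and *ref4-3* samples were not used here.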

Additional observations from a re-analysis of the deposited data

How the results depend on the processing

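Region pairs named for lying farthest to either side were chosen as extremes, and no setting moved the median log2 fold below -0.21. The sign of those pairs could therefore hardly change. No alternative changed the sign of the balance in the 30 named region pairs. Of 389 alternative values for them, 371 kept their side of the thresholds, 15 became calls and 3 lost it: *CRU3* (0.95) and *TFL1* (0.91) with library totals only, and *COR15A* (-0.99) with pairs that share 50% or more. Of 26 alternative counts of balance calls, 21 stayed within 1.5 times and 5 moved. Of 119 alternative values for shares, lengths, densities and numbers of genes or islands, 46 stayed within the spread between replicates or 1.5 times a count and 73 moved. The median H2A.Z coverage was higher in genes with both marks than in genes with H2A.Z alone in every setting and length class run except genes over 3 kb with marks over at least 50% of the gene (80.2% against 85.3%), and the order for the first 500 bp of genes over 2 kb differed between the merged list and the replicates.

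In the lists of single replicates, the share of H3K27me3 length inside H2A.Z islands was 55.8% to 57.0%, the reverse share 38.1% to 38.3%, the share of H3K27me3-marked genes with H2A.Z 89.8% to 90.4%, the share of H2A.Z-marked genes with H3K27me3 35.4% to 35.9%, and the median share of a coding gene covered by H2A.Z 83.7% to 85.0% in genes with both marks and 43.5% to 45.5% in genes with H2A.Z alone. With only the stretches in both replicate lists, these were 52.7%, 38.0%, 88.6%, 36.0% and 80.5%, the last for genes with both marks. With only the islands above the median score, they were 40.2%, 32.3%, 70.6%, 31.0%, 87.8% and, for H2A.Z alone, 63.2%. With marks over at least 50% of the gene, the shares of genes were 84.6% and 42.9%, and the coverage was 91.4% and 82.8%, as that rule itself sets a floor. With protein-coding genes only the shares of genes were 95.3% and 34.4%, with all gene types the coverage was 88.1% and 47.4%, and with 1 bp as the minimum 35.5% of H2A.Z-marked genes had H3K27me3.

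For the balance, 255 pairs were called higher with library totals only. Lower calls were 1068 with pairs that share 50% or more (6300 pairs tested) and 1427 with every gene with both marks (7455 tested). A fold above 1.5 gave 1044 higher and 1243 lower. Leaving out single libraries gave 411 to 429 higher and 653 to 670 lower, where the lone library of a mark is assumed to vary like the others, DESeq2 gave 425 and 657, and the replicate block 425 and 656. Deviations of same-numbered libraries of the 2 marks correlated at r = 0.004 over 4496 pairs, so the numbers were not shown to pair the samples. The cause of these shifts was not tested where the construction does not give it. Regions held a median of 892 H3K27me3 and 381 H2A.Z fragments per library, and with 2 libraries per mark the spread rests on few samples.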
